A study of Mus musculus with 4 samples.

Results

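The genes of the cytosolic translation machinery held 161 of the 28412 C-to-U editing sites listed for young mouse cortex, under 39 of the 4206 gene symbols in the list. They were chosen by name alone: symbols starting with Rps or Rpl and a digit or p, or with Eif, Eef or Etf1. By role, 14 sites lay in 11 ribosomal protein genes, 105 in 18 initiation factor genes and 32 in 5 genes of elongation and termination factors. A further 9 sites lay in 4 kinase genes that share these symbols, and 1 lay in the pseudogene Rpl9-ps6.

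The sites came from scDART-seq, a single-cell assay that joins APOBEC1, a cytidine deaminase, to a YTH domain, which binds N6-methyladenosine (m6A). Cytosines next to m6A are turned into uracil and are read as C-to-T changes. Mice were 6 to 8 weeks old when dosing with tamoxifen began, at 20 mg/kg with 24 h between doses, and cortex was collected 7 days after dosing ended. Per the labels, the 4 samples are sublibraries of a single pool of cells of 2 genotypes, APOBEC1-YTH and APOBEC1-YTHmut, whose YTH domain is mutated. The pool therefore has no untreated group, and both genotypes received tamoxifen. Sorted nuclei of neurons are described in the series text, whereas the sample labels describe dissociated cortex cells barcoded by splitting and pooling; the list is described here by the sample labels. The sources used here do not give the promoter or the cells that drive the fusion.

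The deposited list is 1 list for the whole pool and names neither samples nor genotypes nor cell types, so no value below has a replicate and no test between conditions was possible. Each site has a whole number, called here the site count, whose lowest value is 3. The read depth behind it is unknown, and RNA levels are not in the list, so a gene without a listed site was not shown to lack m6A. Of 6 neuronal markers looked up, 5 had a listed site, as did 3 of 4 astrocyte markers, 3 of 3 oligodendrocyte markers, 2 of 3 microglial markers and 2 of 2 endothelial markers. Gad1, Gfap and P2ry12 had no site, while Syt1 had 139 and Slc1a2 had 251.

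Ribosomal proteins form the small and large ribosomal subunits together with ribosomal RNA, and their mRNAs are short and abundant in most cells. Initiation factors bring the small subunit and the initiator tRNA to the capped mRNA, with eIF4E binding the cap, eIF4G acting as the scaffold and eIF3 linking it to the ribosome. Elongation factors deliver aminoacyl-tRNA and move the ribosome along the mRNA, and termination factors release the finished protein. In neurons these steps also run in dendrites and axons, where local protein synthesis is tied to synaptic plasticity. The m6A mark in mRNA is laid down mostly in the sequence DRACH and is known to be frequent around stop codons and in long internal exons.

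The edited cytosine lies just after the modified adenosine in the assay, so each site is shown as the edited C with 10 bases on each side, 5′ to 3′. Sequences were read from GENCODE M21 transcripts on mm10, and capitals mark the edited C and the 2 bases before it. The ribosomal protein sites with the highest counts are shown to compare their contexts.
Rps23: tcattaagAACgggaagaaga
Rpl4: catgtggtGACaaacccttgt
Rpl22: tgaagaagAACaacctccgag
Rps15a: tttttttaAACgtaaagcata
Rpl29: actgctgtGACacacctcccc
Selected translation factor sites follow: the highest site of each of 6 genes, a neighbouring site of Eif4g3 and the highest site of Eef1a1 in the coding sequence (CDS). Other sites of Eef1a1 and Eif4g3 have higher counts than some of these.
Eif4g3 upstream: tctttttaAACgaggactcat
Eif4g3 downstream: taaacgagGACtcatacttta
Eef1a1 3′ UTR: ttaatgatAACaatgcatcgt
Eef1a1 CDS: tctccaagAACgggcagaccc
Eif4g2: aatttgaaAACcgaaccagaa
Eif5b: gcagagtaAACagagggagcc
Eif4e: caccccagAACccgcagatgt
Eif4g1: ggcagaagAACggggacgcct

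Fewer ribosomal protein genes than translation factor genes had a listed site. Of 84 annotated ribosomal protein genes, 11 had one, 13.1% (exact Clopper-Pearson 95% interval 6.72 to 22.2). Of 55 translation factor genes, 23 had one, 41.8% (28.7 to 55.9). The background was 17.6% of 21866 annotated protein-coding genes. The intervals treat genes as independent draws and cover counting error only. The interval of the ribosomal protein share held the share of all genes, and that of the translation factor share lay above it.

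Transcript length differed between the groups along with these shares. The longest coding transcripts of ribosomal protein genes had a median length of 910 nt, those of translation factor genes 2542 nt and those of all protein-coding genes 2683 nt. Among the 2901 protein-coding genes within the middle range of ribosomal protein lengths, 660 to 1271.5 nt, 3.52% had a site. Among the 7836 genes within the middle range of translation factor lengths, 1815 to 3560 nt, 13.7% had one. Each group's share, taken over members of all lengths, was higher than that of the genes in its middle range. Members with a site also lie outside these ranges, such as Rps15a with 5179 nt and Eif4g3 with 8134 nt. The share of members within the ranges was not computed, so this is not a comparison at equal length. RNA abundance, in which these groups also differ from most genes, is not in the list, and its part in the shares was not tested.

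The shares of the 2 ribosomal subunits overlapped. In the large subunit 7 of 52 genes had a site, 13.5% (5.59 to 25.8), and in the small subunit 4 of 32 genes, 12.5% (3.51 to 29.0). Among the factors, 18 of 44 initiation factor genes had a site, 40.9% (26.3 to 56.8), and 5 of 11 elongation and termination factor genes, 45.5% (16.8 to 76.6). Of 26 regulator genes whose symbols start in the same way, 4 had a site, 15.4% (4.36 to 34.9). The interval of initiation factors lay above that of ribosomal proteins, and those of the other roles overlapped it.

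**Figure D1:**
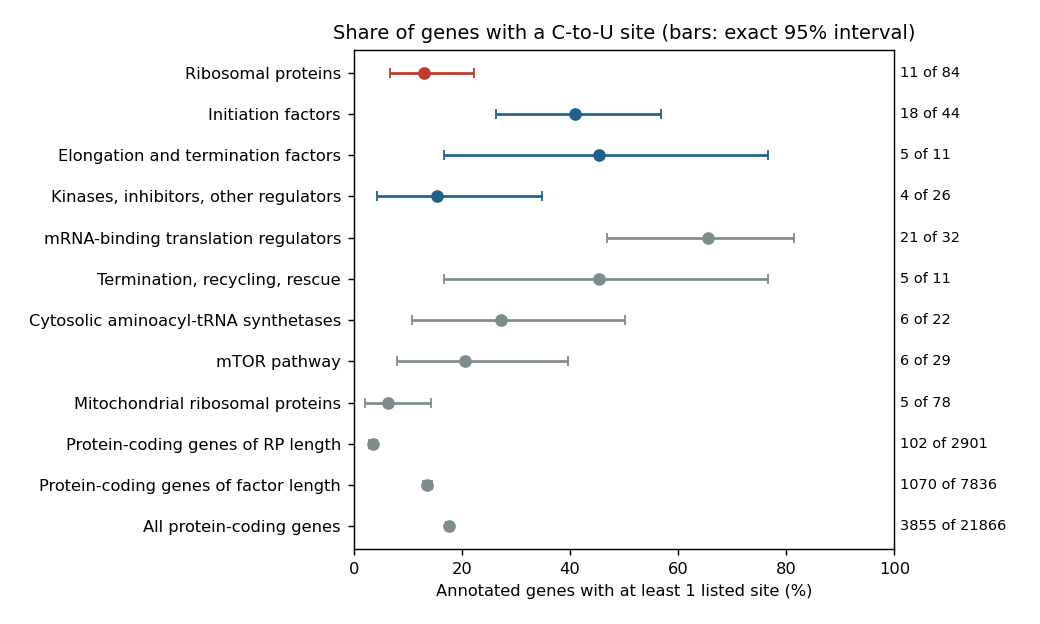
Percentage of annotated genes with at least 1 listed site (x axis) in each group of genes (y axis). Points are shares, bars are exact 95% intervals and the numbers at the right are genes with a site of all annotated genes, with ribosomal proteins at 13.1% and initiation factors at 40.9%.

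The groups also differed in how many sites a gene carried once it had any. Among genes with a site, ribosomal protein genes had a median of 1 site, with a range of 1 to 4. Translation factor genes had a median of 3, with a range of 1 to 30, and all listed symbols outside the rule a median of 2. No ribosomal protein gene and 5 of 23 translation factor genes reached 10 sites, against 16.9% of all listed symbols. Per kilobase of exon the medians were 0.579 sites for ribosomal proteins, 0.540 for translation factors and 0.423 for all protein-coding genes with a site. These medians leave out genes without a site, and a short gene with 1 site has a high rate. Per 100 RAC cytosines, those in which the edited C follows A with a purine before it, 2.68 were listed in ribosomal protein genes with a site, 4.52 in translation factor genes with a site and 3.67 in all protein-coding genes with a site. Over all annotated genes the values were 0.51 for ribosomal proteins, 2.48 for translation factors and 1.003 for all protein-coding genes. The ribosomal protein rate was thus the lowest of the 3 on this scale, and per kilobase it was not.

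The median count was 5 in ribosomal protein sites, 4 in translation factor sites and 4 in the rest of the list. A count of 20 or more was reached by 1 of 14 ribosomal protein sites (7.14%), by 18 of 137 translation factor sites (13.1%) and by 12.1% of the other sites. Of the 18 factor sites, 9 were in Eef1a1 and 6 in Eif4g3, and the share was 8.57% in initiation factors and 28.1% in elongation and termination factors. With 14 ribosomal protein sites, no difference in this share was shown. The lowest count of 3 was carried by 42.9% of ribosomal protein sites, 38.0% of translation factor sites and 41.1% of the rest. Summed over sites, ribosomal protein genes had a count of 115, initiation factors 974 and elongation and termination factors 682.

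**Figure D2:**
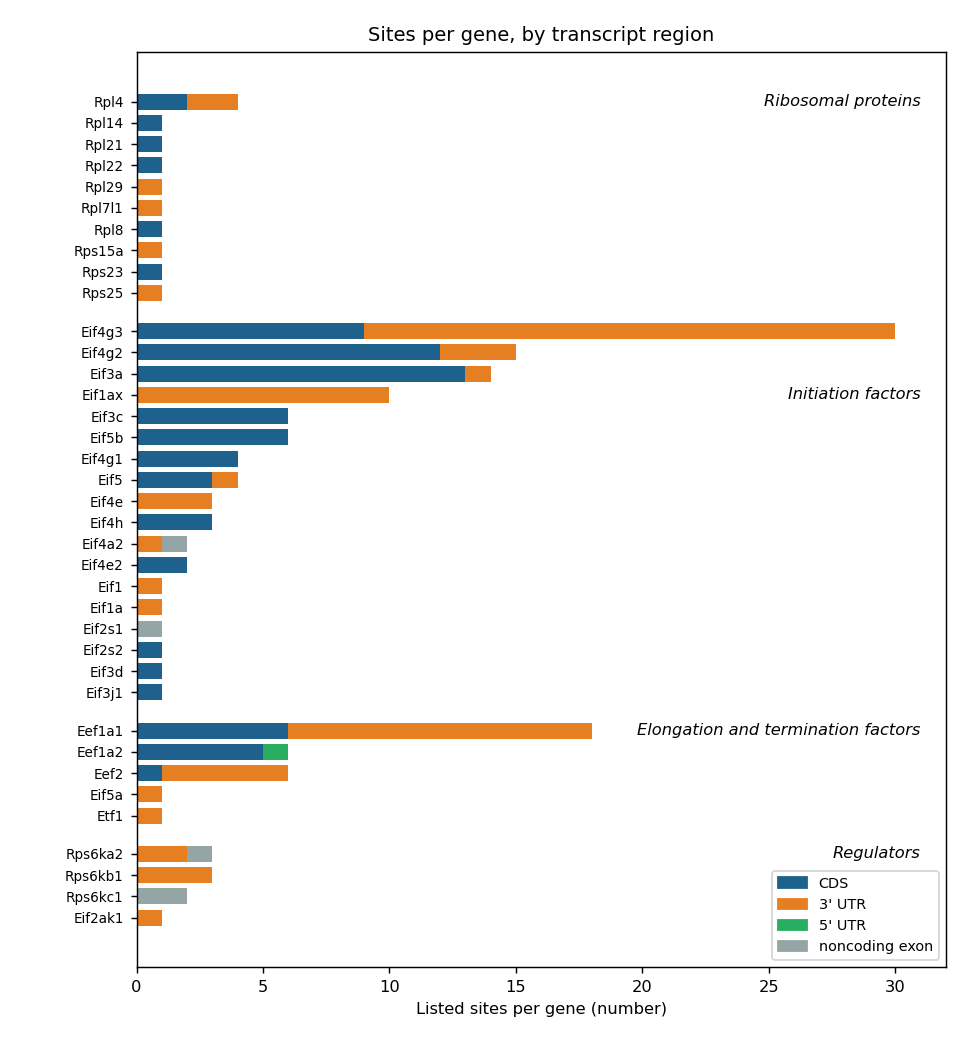
Number of listed sites of each gene (x axis) for the genes with a site (y axis), grouped by role and coloured by transcript region, with 10 of the 11 ribosomal protein genes drawn. All of these had 1 site except Rpl4 with 4, while Eif4g3 had 30 and Eef1a1 had 18.

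Among small subunit genes, Rps23 had the ribosomal protein site with the highest count. Rps23 encodes a protein of the decoding centre, and its site, at chr13:90924392 on the plus strand of mm10, had a count of 27. It lay in the CDS, 201 nt before the last base of the stop codon. The list holds 2381 sites with a higher count. The 51 bases around it also occur in 3 other annotated genes, so reads from those copies cannot be told apart from reads of Rps23 over that stretch.

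Lower counts were listed in Rps15a and Rps25. Rps15a had a count of 9 at chr7:118109098 on the minus strand, 2 nt after the stop codon. Rps25, whose protein several viral RNAs need to recruit the ribosome, had a count of 5 in the 3′ UTR. Only 1 site was listed in each of these 2 genes.

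Rpl4 was the ribosomal protein gene with the most sites. Its protein lines the peptide exit tunnel of the large subunit. The highest count, 19, lay at chr9:64178516 on the plus strand, 72 nt after the stop codon. The other 3 sites had a count of 5 at 1119 nt before the stop codon, a count of 3 at 62 nt after it and a count of 3 at 4 nt before it. The last of these was the only ribosomal protein site outside RAC.

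The remaining large subunit genes had 1 site each. Rpl22, an RNA-binding protein of the large subunit, had a count of 18 in the CDS at chr4:152332319 on the plus strand. Rpl29 had a count of 9 at chr9:106431491 on the plus strand, 42 nt after the stop codon. Rpl7l1, a paralog of Rpl7, had a count of 5 at 941 nt after its stop codon. Rpl8, which lies near the peptidyl transferase centre, had a count of 3, as did Rpl14 and Rpl21, all 3 in the CDS. Exact copies of the 51 bases around the Rpl14 and Rpl21 sites occur in 1 other annotated gene each, so both sites are uncertain.

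Sequence copies were more common in ribosomal protein genes than in the factors, and this bears on where a site can be read. Of the RAC cytosines of all annotated ribosomal protein transcripts, 37.4% lie in a stretch of 51 bases that another annotated gene repeats. The share was 9.26% for translation factors and 4.38% for all protein-coding genes. In ribosomal protein genes with a site it was 21.1%, and in those without a site 41.3%. Whether such copies removed reads from the list was not tested, because the sources used here do not say how reads with several matches were handled. Rpl3, with 97.3% of its RAC cytosines in repeated stretches, had no listed site, nor did the helicase gene Eif4a1 with 72.6%. In Eef1a1, 53.6% of the RAC cytosines lie in repeated stretches, as do 3 of its 18 sites.

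The eIF4G scaffolds held more initiation factor sites than any other family, with 49 sites and a summed count of 640 in 3 of 3 genes. Eif4g3 had 30 sites and a summed count of 492, and 182 listed symbols had more sites. Its highest site, with a count of 161 at chr4:138206421 on the plus strand, lay 267 nt after the stop codon, and 335 sites in the list had a higher count. The neighbouring site, 6 nt downstream at chr4:138206427, had a count of 60 and reads GGACT around its edited C. Counts of 46, 39 and 28 followed at 306, 209 and 363 nt after the stop codon.

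The sites of Eif4g3 were gathered just after the stop codon. The 400 nt after it held 17 of the 30 sites and 430 of the summed count, 87.4%. The 9 sites placed in the CDS had counts of 3 to 11. Thus the highest CDS count of Eif4g3 lay below 9 of its 3′ UTR counts.

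The other scaffolds had their sites elsewhere. Eif4g2, which encodes a scaffold that lacks the eIF4E-binding part, had 15 sites, 12 of them in the CDS. Its highest count, 38, lay at chr7:111078292 on the minus strand, 2190 nt before the end of the stop codon, and its 3 sites in the 3′ UTR each had a count of 3. Eif4g1, the general scaffold, had 4 sites, all in the CDS, with counts of 18, 8, 3 and 3. The 3′ UTRs of the longest coding transcripts measure 2354 nt in Eif4g3, 4942 nt in Eif4g2 and 450 nt in Eif4g1. The longest of them, that of Eif4g2, thus carried a small part of that gene's count, 7.76%.

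The CDS of Eif4g3 and Eif4g1, taken from the longest coding transcripts, are 65.9% identical over aligned bases. No CDS site compared was listed at the same aligned base in both. The Eif4g3 sites 5152 and 4741 nt before the end of the stop codon lie in the 5′ UTR of its longest transcript and were not compared. At 3 of the compared Eif4g3 sites, with counts of 4, 11 and 4, the aligned base of Eif4g1 is also a cytosine in RAC and was not listed. For the 4 Eif4g1 sites, 0 aligned bases of Eif4g3 are cytosines in RAC. The flanks of these bases can differ, and counts of 4 are close to the lowest listed count.

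**Figure D3:**
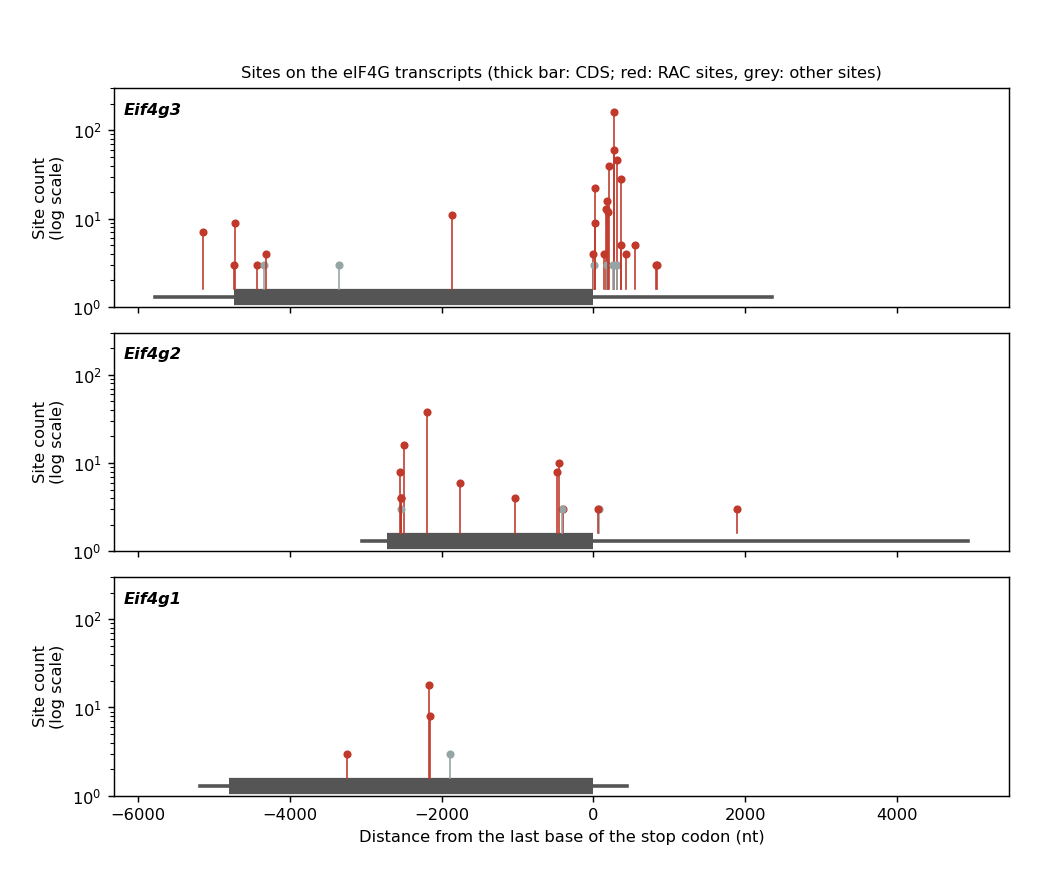
Listed sites along the longest coding transcripts of Eif4g3, Eif4g2 and Eif4g1. The x axis is the distance from the last base of the stop codon in nt, the y axis the site count on a log scale and the thick bar the CDS, with RAC sites in red and other sites in grey. The tall cluster of Eif4g3 follows the stop codon and reaches 161, while the highest sites of Eif4g2 (38) and Eif4g1 (18) lie in the CDS. The Eif4g3 sites at 5152 and 4741 nt before the stop codon are drawn in the 5′ UTR of this transcript and are counted as CDS in the text.

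The eIF3 complex, which binds the small subunit, had sites in 4 of 14 annotated genes, beside 17.6% of all protein-coding genes. Most of these sites were in 1 gene. Eif3a, the largest subunit, had 14 sites, 13 in the CDS, with a summed count of 102. Its highest counts were 18, 15 and 14, at 1526, 2064 and 1817 nt before the end of the stop codon. Eif3c had 6 sites, all in the CDS, and its highest count was 9. Eif3d and Eif3j1 had 1 site each, with a count of 3. The other 10 eIF3 genes had no listed site.

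Among the factors that act at start codon selection, Eif1ax, Eif1a and Eif1 had sites in the 3′ UTR only, and Eif1ax had the most. Eif1ax, on chromosome X, encodes eIF1A, which supports scanning. It had 10 sites with counts of 3 to 14, the highest at 1185 nt after the stop codon. Its autosomal copy Eif1a, whose CDS is 85.5% identical, and Eif1 had 1 site each with a count of 3, and Eif1b had none. Eif5, which activates the GTPase of eIF2, had 4 sites and a highest count of 8. Eif5b, the GTPase for subunit joining, had 6 sites, all in the CDS, with counts of 27, 9, 6, 5, 5 and 3.

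The genes for eIF2, which carries the initiator tRNA, had few sites. Eif2s1, the subunit whose phosphorylation lowers initiation under stress, had 1 site with a count of 3 in an exon of a noncoding transcript. Eif2s2 had 1 CDS site with a count of 4, and Eif2s3x and Eif2s3y had none. All 5 genes of eIF2B, the exchange factor of eIF2, had no listed site, and neither had Eif6. Beside the 17.6% of all protein-coding genes with a site, 5 genes are too few to show a lower share.

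The cap-binding proteins and helicases had between 0 and 3 sites. Eif4e, the cap-binding protein, had 3 sites, all in the 3′ UTR, with counts of 20, 7 and 4 at 249, 302 and 280 nt after the stop codon. Eif4e2, a cap-binding protein known to repress translation, had 2 CDS sites with counts of 8 and 4, 4 nt apart. Eif4e3 had none. Of the helicases, Eif4a2 had 2 sites with counts of 5 and 3, and Eif4a1 and Eif4a3 had none. Eif4h, a helper of the helicase, had 3 CDS sites with counts of 4, 3 and 3, and Eif4b had none. Where these families had sites, each gene thus kept to either the 3′ UTR or the CDS, apart from Eif4a2, which had 1 site in the 3′ UTR and 1 in a noncoding exon.

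The elongation factor Eef1a1 had the largest summed count among the members, 600 in 18 sites. The protein brings aminoacyl-tRNA to the ribosome. The highest count, 112, lay at chr9:78478618 on the minus strand, 116 nt after the stop codon. A count of 69 was listed at 3 positions, 225 and 266 nt after the stop codon and 999 nt before its end. The 3′ UTR is 285 nt long and held 12 of the 18 sites and 85.5% of the summed count. Within the 3′ UTR, 5 sites also overlap the annotated miRNA gene Gm26377 (chr9:78478528-78478635, minus strand), so the list does not say from which transcript they came.

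Eef1a2, the form of neurons and muscle, had 6 sites, with counts of 8, 5, 3, 3, 3 and 3. Of these, 5 lay in the CDS and 1 in the 5′ UTR, and none in its 3′ UTR of 326 nt. The CDS of the 2 genes are 80.1% identical. At 2 aligned cytosines both genes had a site, with a count of 4 in Eef1a1 and 3 in Eef1a2 at each. These sites are shown because the flanks differ while the edited triplet is the same.
Eef1a1 position 245: aaattcgaGACcagcaaatac
Eef1a2 position 245: aagtttgaGACcaccaagtac
Eef1a1 position 729: gtccaactGACaagcccctgc
Eef1a2 position 729: gccccactGACaagccccttc
Positions count from the start codon. The CDS site of Eef1a1 with a count of 69 is at position 390, where Eef1a2 also has a cytosine in RAC that was not listed. The 51 bases around the site of Eef1a1 at position 390 occur in 1 other annotated gene, and those at position 245 in 4 others.

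**Figure D4:**
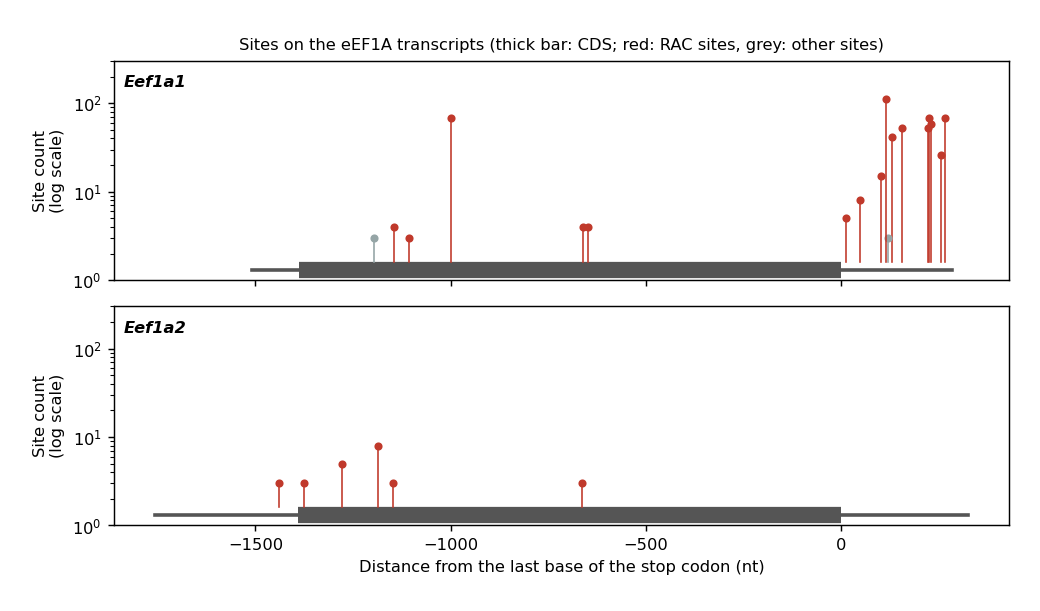
Listed sites along the longest coding transcripts of Eef1a1 and Eef1a2. The x axis is the distance from the last base of the stop codon in nt, the y axis the site count on a log scale and the thick bar the CDS, with RAC sites in red and other sites in grey. Eef1a1 has 12 sites after the stop codon, up to a count of 112, and Eef1a2 has none there.

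The other elongation and termination genes had lower counts. Eef2, which moves the ribosome by 1 codon, had 6 sites, 5 of them in the 3′ UTR, with counts of 11, 10, 7, 5, 5 and 4. Etf1, the release factor eRF1, had 1 site with a count of 12 in the 3′ UTR. Eif5a, which helps the ribosome past difficult peptide bonds, had 1 site with a count of 3. No site was listed in Eef1b2, Eef1d, Eef1e1, Eef1g, Eif5a2 or Eefsec, the other genes of this role.

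Across genes, members had more of their sites in the CDS than the rest of the list. The CDS held 8 of 14 ribosomal protein sites, 57.1% (28.9 to 82.3), and 73 of 137 translation factor sites, 53.3% (44.6 to 61.9). It held 29.1% of the other listed sites, a share that the wide interval of the ribosomal proteins reaches. The 3′ UTR held 42.9% of ribosomal protein sites, 44.5% of translation factor sites and 58.9% of the others. Among the factors, initiation factors had 58.1% of their sites in the CDS, and elongation and termination factors 37.5%. Sites of a gene are not independent, and the CDS share of the factors was 48.8% without Eif3a and 59.8% without Eif4g3.

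The number of cytosines that could be edited was taken into account next. In genes with a site, 4.19 of every 100 RAC cytosines of the CDS were listed in ribosomal protein genes, 4.88 in translation factor genes and 2.41 in all protein-coding genes. In the 3′ UTR the values were 2.02 for ribosomal proteins, 4.34 for translation factors and 5.44 for all genes. The ribosomal protein value rests on 5 sites among 247 cytosines. These cytosines include the 3′ UTR of 4728 nt annotated for Rps15a, which may not be the form in cortex. Elongation and termination factors had 17.1 in the 3′ UTR, from 18 sites, most of them in Eef1a1. Over all annotated genes, those without a site included, the CDS values were 0.604 for ribosomal proteins, 2.46 for translation factors and 0.638 for all protein-coding genes. The higher CDS rate of ribosomal proteins was therefore seen only among genes with a site, while that of the factors was seen in both counts. At the level of genes, 6 ribosomal protein genes had CDS sites only, 4 had 3′ UTR sites only and 1 had both. Among the translation factor genes, 8 had CDS sites only, 6 had 3′ UTR sites only and 9 had both or another pattern.

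Ribosomal protein sites lay near the stop codon. Of 13 sites on the longest coding transcripts, 11 lay within 400 nt of it, 84.6% (54.6 to 98.1), against 51 of 135 translation factor sites, 37.8% (29.6 to 46.5), and 30.3% of the other sites. The transcripts themselves are part of this difference in measure. In genes with a site, the same window held 43.5% of the RAC cytosines of ribosomal proteins, 20.0% of the factors and 16.6% of all protein-coding genes. Over all annotated genes it held 57.46% in ribosomal proteins, 26.58% in the factors and 22.85% in all protein-coding genes. Both exceptions among the ribosomal proteins, in Rpl4 and Rpl7l1, were named above. The distance rests on the longest annotated transcript, which for Rps15a is 5179 nt long and may not be the form in cortex. That transcript also gives 107 of the 448 RAC cytosines behind the 43.5%.

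**Figure D5:**
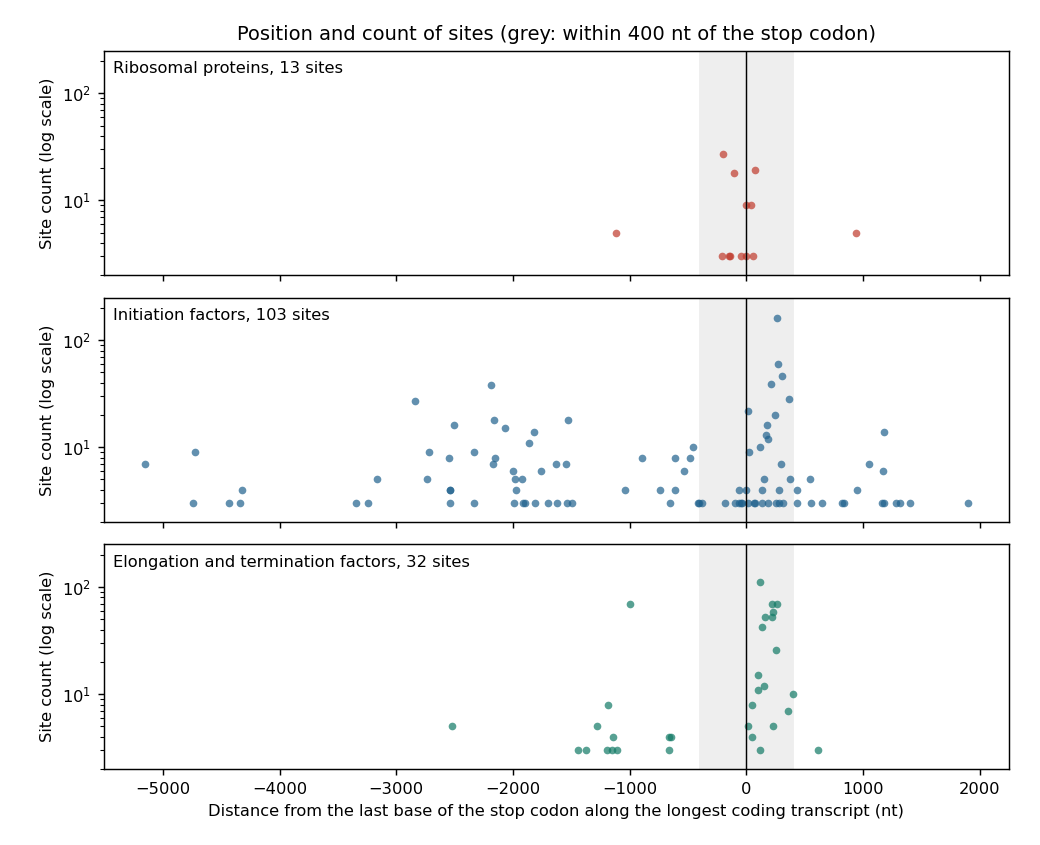
Site count on a log scale (y axis) against distance from the last base of the stop codon in nt (x axis) for ribosomal proteins, initiation factors and elongation and termination factors. Grey marks 400 nt on either side of the stop codon, which holds 11 of 13 ribosomal protein sites, and the initiation factors reach 5152 nt before the stop codon.

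The bases around the edited C were similar across the groups. DRACH means RAC with a base other than C before it and a base other than G after the edited C. At a count of at least 4, 6 of 8 ribosomal protein sites in RAC were in DRACH, 75% (34.9 to 96.8). The share was 56 of 85, 65.9% (54.8 to 75.8), for translation factors and 72.1% for the rest. Among RAC cytosines of the same transcripts, 75.9% were in DRACH in ribosomal proteins and 76.0% in translation factors. The upper bound for the factors lies just below the share of their RAC cytosines, and at a count of at least 10 their share was 76.5%. The interval treats sites as independent, although many share a gene, so it is no test of this difference. All member sites outside RAC had a count of 3. Nearly the same holds for the whole list, in which 16688 of the 16749 sites with a higher count were in RAC, so it is not particular to the members.

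A G after the edited C was more frequent at CDS sites of the factors than at their CDS cytosines in RAC. It followed 3 of 7 RAC sites of ribosomal proteins, 42.9% (9.90 to 81.6), and 21 of 63 of translation factors, 33.3% (22.0 to 46.3). It followed 28.9% of the CDS RAC sites of other genes. Among the RAC cytosines of the same CDS a G followed 13.8% in ribosomal proteins and 14.2% in translation factors. The sequence GGACT, a form of DRACH well known for m6A, was found at 2 translation factor sites, both in Eif4g3, with counts of 60 and 3, and at 0 ribosomal protein sites. This was 1.46% of translation factor sites, about the 1.34% of the whole list, and 14 ribosomal protein sites are too few to show a lower share.

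Rps23, Eef1a1 and Eif4g1 shared 9 bases, AAGAACGGG, around a CDS site, as seen in the sequences above. These were the sites with the highest CDS count in each of the 3 genes: 27, 69 and 18. In Rps23 it was the only site. The 9 bases were taken from these same sites. In all genes with a site, 20 of 67 RAC cytosines in these 9 bases were listed, 29.85%. For translation factor genes with a site it was 2 of 3. The shorter GAACGGG, chosen after the values were seen and searched on the transcript strand only, occurs around a RAC cytosine at 11 places in the annotated member transcripts. It was listed at 4 of them, those in Rps23, Eef1a1, Eif4g1 and Eif5b, and not at 7 in Eif2d, Eif3a, Eif3c, Eef1a2 and Eef1d. In all genes with a site, 192 of 610 such cytosines were listed, 31.5%. The 11 places also cover Eif2d and Eef1d, which have no listed site. In member genes with a site, 1 of 1 was listed in ribosomal proteins and 3 of 7 in translation factors. A match is a description and names no binding factor.

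Exon junctions were looked at because the junction complex is known to keep m6A low in nearby CDS. Of the CDS sites in RAC, 5 of 7 in ribosomal proteins, 71.4% (29.0 to 96.3), and 57 of 61 in translation factors, 93.4% (84.1 to 98.2), lay within 100 nt of a junction. For all protein-coding genes the share was 62.1%. The RAC cytosines of the same CDS lay this close in 91.6% for ribosomal proteins, 89.0% for translation factors and 73.2% for all genes with a site. The share near junctions was thus about that of the RAC cytosines in the factors, and below it in all genes and, on 7 sites, in ribosomal proteins. This comparison was chosen after the values were seen.

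The 4 kinase genes had few sites and none in the CDS. Rps6kb1, the S6 kinase that phosphorylates ribosomal protein S6 downstream of mTOR, had 3 sites with counts of 9, 4 and 3, all in the 3′ UTR. Rps6ka2, of the RSK family, had 3 sites with counts of 11, 6 and 5. Rps6kc1 had 2 sites and Eif2ak1, the kinase HRI that phosphorylates eIF2, had 1, each with a count of 3. No site was listed in Eif2ak2, Eif2ak3, Eif2ak4 and Eef2k, nor in the genes of the eIF4E-binding proteins, Eif4ebp1, Eif4ebp2 and Eif4ebp3.

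Companion genes of translation outside these symbols differed in their share of genes with a site. Among mRNA-binding regulators of translation, 21 of 32 genes had a site, 65.6% (46.8 to 81.4), led by Cyfip2 with 52 sites, Ddx6 with 29, Cpeb4 with 18 and Ddx3x with 12. Of termination, recycling and rescue factors 5 of 11 had a site, with at most 2 sites, in Gspt1. Of cytosolic aminoacyl-tRNA synthetases 6 of 22 had one, 27.3% (10.7 to 50.2), with 4 sites in Hars. In the mTOR pathway 6 of 29 genes had one, 20.7% (7.99 to 39.7), among them Pdpk1 with 7 sites and Rictor with 4. The share of all protein-coding genes was 17.6%. Of these lists, only the interval of the mRNA-binding regulators lay above it, and the other intervals held it.

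Mitochondrial ribosomal proteins form the ribosome inside mitochondria. They had a site in 5 of 78 genes, 6.41% (2.11 to 14.3), with 1 site each, beside 17.6% of all protein-coding genes. The share of cytosolic ribosomal protein genes was 13.1% (6.72 to 22.2), and the 2 intervals overlap. A share of genes of the same length was not computed for the mitochondrial genes. The 4 ribosomal protein genes whose symbols fall outside the rule, Rpsa, Fau and Rack1 among them, had no listed site.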

How the data were processed

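The authors deposited 1 list of sites without a header, holding for each site its position, gene symbol, strand and a whole-number count; the sources used here do not give what the count counts or the filters on cells, reads and sites. STAR 2.7.5 aligned the reads to build mm10, per the submitters' processing notes, and sites were called with Bullseye, per the series text. Sites were placed on GENCODE M21 transcripts by symbol and strand, and all 161 member sites matched and read C. Where transcripts differed, 3′ UTR went before CDS, 5′ UTR and noncoding exon. Distances used the longest coding transcript. Symbols ending in -ps and a number were set apart as pseudogenes. Python 3.11.15, scipy 1.17.1 and Biopython 1.88 were used. In a simulation that drew on 200 genes, 198 of 198 sites were placed correctly on the longest coding transcript. The matching of symbols and the order of regions across transcripts were not tested in it.

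The members, companion lists and comparisons were chosen with earlier results of these data known. Named genes were those with most sites in each role and list, the genes of the 10 member sites with the highest count and 6 paralog families; other genes were named after their values were seen, and some genes named by this rule are not reported here. No p-value is given, since genes and sites of 1 list are not replicates, and the depth per sublibrary is unknown. Alternatives tried kept other sites, merged near sites, left out a gene, or changed roles, regions and windows.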

Additional observations from a re-analysis of the deposited data

How the results depend on the processing

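Defining roles by the start of the symbol alone, which adds pseudogenes and kinases, lowered the ribosomal protein share of genes with a site to 3.82%. Per kilobase of exon, ribosomal protein genes with a site had a median of 0.579 sites and translation factor genes 0.540, while per 100 RAC cytosines of all annotated genes ribosomal proteins had 0.51 sites and translation factors 2.48. With sites of a count of 4 or more only, the median count was 9 for ribosomal proteins and 8 for translation factors. With a window of 200 nt, 22.2% of translation factor sites lay near the stop codon. With RAC sites of a count of 10 or more, the DRACH share of translation factors was 76.5%. The other alternatives stayed within the counting interval of a share or within the spread over members of a median. Merging sites within 10 nt, the longest transcript alone and leaving out the member with most sites were among them. The limits are those of 1 pooled list: no replicate, no genotype, no read depth and no RNA level per gene. No paired analysis was possible because sites carry no sample name and the 4 sublibraries are pooled.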

Other observations

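Edited cytosines of translation factors often stood at the first base of a CGN codon, which encodes arginine; this was examined after the values were seen. Of 7 ribosomal protein CDS sites in RAC, 2 did so, 1 of them in Rpl8. Of 61 translation factor CDS sites in RAC, 15 did so, 24.6% (14.5 to 37.3), against 5.52% of the RAC cytosines of the same CDS. In all protein-coding genes with a site it was 8.70% of sites and 2.7% of cytosines. A CGN codon puts a G after the edited C, so these factor sites are among the CDS sites with such a G described above. The 2 observations are therefore not separate. Eif3a had 6 of the 15, with counts of 4 to 18, Eif4g1 and Eif5b had 3 each, and Eef1a2, Eif3c and Eif4g2 had 1 each. Without Eif3a the share was 18%, and with sites of a count of 4 or more 30.2%. The 2 Eif3a sites of this kind with the highest counts are shown, in which the capitals mark the edited C and the 2 bases before it.
Eif3a, count 18: gagagcaaAACgggaggaaga
Eif3a, count 14: gcagctagAACgagaaaaagc
Both lie on chromosome 19 of mm10, minus strand, at 60768857 and 60771116.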
